A study of Homo sapiens with 10 samples.

Results

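Suntag was set against VP64 as activators of transcription in HEK293T cells, a line derived from human embryonic kidney. The comparison rests on 4 of the 10 poly(A) RNA-seq libraries of the study, chosen by their titles: Suntag replicates 1 and 2, and VP64 replicates 1 and 2. All cells were transfected by lipid reagent, and every group received guide RNA directed at HBG1, which encodes a fetal globin chain and is normally silent outside erythroid cells. The remaining 6 libraries are 2 each of VPR, SAM and a control titled as guide only, and they enter here as reference values and to estimate the spread. No age, clone or culture is given in the labels, so the libraries of a group may be technical repeats. The p-values rest on the spread between such libraries, shared over all groups.

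Both activators bring the same kind of activation domain to a promoter, and differ in how. VP64 is a tandem repeat of the core activation domain of VP16, a herpes simplex virus protein, fused directly to catalytically dead Cas9 (dCas9), which binds DNA where the guide directs it without cutting. In Suntag the dCas9 carries an array of short peptide epitopes, and each epitope can be bound by a single-chain antibody that itself carries VP64, so that 1 bound dCas9 can gather several copies. The VP16 domain is known to recruit Mediator and histone acetyltransferases to promoters.

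Expected counts, the estimated read numbers of the program RSEM, summed to 5351863 and 3316534 in the VP64 libraries and to 5734411 and 5580553 in the Suntag libraries. Each table lists 31848 gene clusters, which are numbered sets of transcripts without gene names, and 13241 of them had enough counts to be tested. HBG1 and the markers of the cell line were not analysed here for lack of names. Clusters are therefore described by their number, or by rank, transcript length and level. Levels are given as counts scaled to the library total (CPM) or, between clusters, as TPM, which are per length. The mean cDNA fragment length, taken from the gap between transcript and effective length, was 103 and 123 nt in VP64 and 96.6 and 89.8 nt in Suntag, so the groups differed in this property of the libraries too.

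Few clusters separated Suntag from VP64. By edgeR's quasi-likelihood test at an adjusted p under 0.05, 31 clusters were called, 0.234% of those tested. Of these, 16 (0.121%) were higher and 15 (0.113%) lower in Suntag. Only 3 of the calls (0.0227%) had a fitted difference of at least 2-fold, and these are clusters 4232, 7272 and 30434. The other 28 lay between 1.40-fold and 1.89-fold. At an unadjusted p under 0.05 there were 1958 clusters (14.8% of those tested), 1033 higher and 925 lower. With no differences and a fitting spread, a share of about 0.05 would pass. Differences that missed the adjusted threshold may thus be more common than the calls. The spread used is shared over all groups, however, and may be smaller than that between the Suntag libraries.

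**Figure D1:**
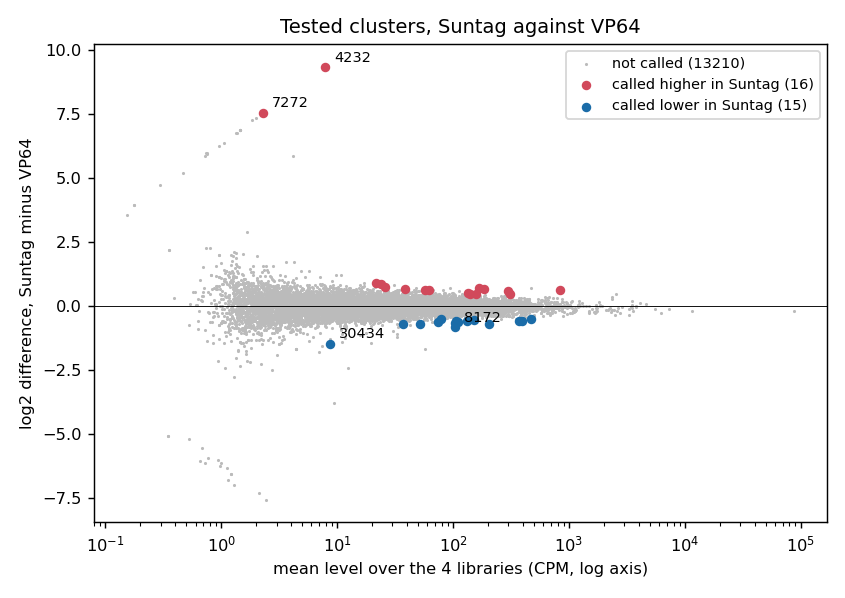
Log2 difference of Suntag minus VP64 against the mean level over the 4 libraries in CPM (log axis), 1 point per tested cluster. The 31 called clusters are coloured and the clusters given by number are labelled; 4232 and 7272 lie far above the rest, while most called clusters lie within 1 log2 unit of 0 at levels above 10 CPM.

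The size of the differences that these libraries could exclude depended on the level. Over all tested clusters the median log2 difference was 0.0017, and its quartiles were -0.16 and 0.17. The 95% interval of the difference lay within 2-fold in either direction for 10934 of 13236 clusters with an interval (82.6%), and within 1.5-fold for 7884 (59.6%). Among the 7735 clusters of 10 to 100 CPM, 98.3% were bounded within 2-fold, against 40.0% of the 3450 clusters of 1 to 10 CPM and 0 of the 97 below 1 CPM. A 2-fold difference in a cluster of low level could therefore be missed, while larger differences among well-measured clusters were few. The 100 most abundant clusters, which held 27.7% of the counts of the 4 libraries, had a median absolute log2 difference of 0.13, and 99 of them were bounded within 2-fold. Among them 1 was called, the cluster ranked 11 among higher ones.

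Cluster 4232, with 4 transcripts, was the clearest difference between the activators. It held 106 and 73 counts in the Suntag libraries and 0 in both VP64 libraries. The groups did not overlap, and the counts were whole numbers in all 10 libraries. Fractional counts, a sign of reads divided between clusters, were thus absent, though whole counts alone do not exclude shared reads. The level in Suntag was 18.5 and 13.1 CPM, or 44.4 ± 11.4 TPM (SD, n = 2). That is 2.42 times the median of 18.4 TPM over the tested clusters in Suntag, and above 72.5% of them. In VP64 the absence of counts allows up to 0.346 CPM over both libraries together, taking 3 counts as the upper limit; such limits and the exact intervals given here cover counting error only.

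Cluster 4232 was called higher in Suntag (edgeR adjusted p = 0.00102, higher in 2 of 2 libraries). Its summed Suntag counts, scaled to the library totals, stood 45.7-fold above that floor of 3 counts over the VP64 libraries together. This ratio leaves out the error of the Suntag counts and is no lower limit. The fitted log2 difference of 9.34 depends on a prior count and is no measure of size. The 2 Suntag libraries differed from each other by a ratio of 1.41 (exact 95% interval 1.04 to 1.93), a small gap beside the distance to VP64. Without VP64 replicate 1 the call ended (edgeR adjusted p = 0.138), although the remaining VP64 library also held 0 counts. The transcript length that RSEM weights by the share of each isoform was 802 and 833 nt in Suntag, 780 and 770 nt in VPR, and 784 and 829 nt in SAM, so the 3 groups lay close together in this value. The guide-only control held 0 and 3 counts.

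The presence of cluster 4232 was shared by the other activators. It held 88 and 75 counts in VPR, or 17.4 and 10.1 CPM, which overlapped the Suntag values. The log2 difference of Suntag minus VPR was 0.21 ± 0.25 (SE, edgeR adjusted p = 0.775), with a 95% interval from -0.33 to 0.75. In SAM it held 260 and 295 counts, or 75.7 and 66.5 CPM, above both Suntag libraries. Suntag was called lower than SAM, with a log2 difference of -2.10 ± 0.22 (SE, edgeR adjusted p = 0.000512; 0.717% of tested clusters were called lower in Suntag than in SAM).

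**Figure D2:**
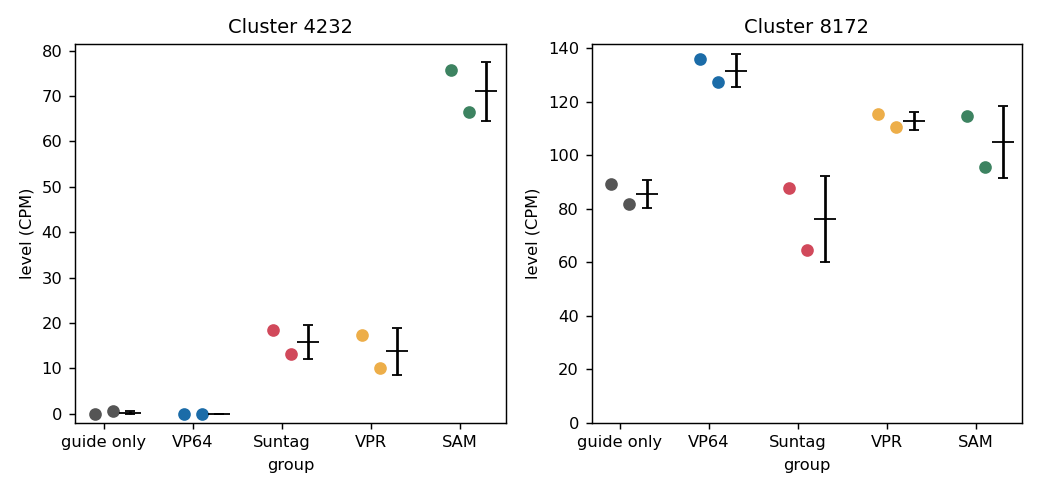
Level in CPM of clusters 4232 and 8172 in each library by group, with coloured points for libraries and black bars for mean ± SD (n = 2). Cluster 4232 is at 0 in both VP64 libraries and at 18.5 and 13.1 CPM in Suntag; cluster 8172 is highest in VP64 and lowest in Suntag replicate 2.

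Clusters 7272 and 30434 formed the other calls of at least 2-fold, and they mirrored each other. Cluster 7272, with 4 transcripts, held 29.5 and 22.5 counts in the Suntag libraries and 0 in all 8 other libraries. It was called higher in Suntag (edgeR adjusted p = 0.0301). Its summed Suntag counts stood 13.3-fold above the same floor, again without their own error. Cluster 30434, also with 4 transcripts, held 59 and 47 counts in VP64 and the same 29.5 and 22.5 counts in Suntag. It was called lower, with a log2 difference of -1.45 ± 0.25 (SE, edgeR adjusted p = 0.0227). The weighted transcript length of both clusters was 6935 nt in the Suntag libraries, whereas in the VP64 libraries it was 6917 nt for 7272 and 6896 nt for 30434. As background, RSEM divides a read that fits transcripts of several clusters between them, and such divided reads give fractional counts.

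Summed over the pair, the difference between the activators was no longer called. The sum was 59 and 47 counts in VP64 and 59 and 45 in Suntag, all whole numbers; of the other 6 libraries, VPR replicate 2 and SAM replicate 1 had a fractional sum. It stood at 12.6 ± 2.23 CPM in VP64 and 9.18 ± 1.57 CPM in Suntag (SD, n = 2 each), and the 2 groups did not overlap. The ratio from summed counts was 0.752 (exact 95% interval 0.568 to 0.995, counting error only). A refit with the pair as 1 cluster, added after seeing the data, gave a log2 difference of -0.45 ± 0.22 (SE, edgeR adjusted p = 0.363), with a 95% interval from -0.93 to 0.02. In that fit 29 clusters were called, and cluster 4232 was the 1 of at least 2-fold. The single calls also ended without 1 library. Cluster 7272 reached edgeR adjusted p = 0.401 without VP64 replicate 1, 0.215 without VP64 replicate 2 and 0.0964 without Suntag replicate 2. Cluster 30434 reached 0.263, 0.215 and 0.152 in the same fits.

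**Figure D3:**
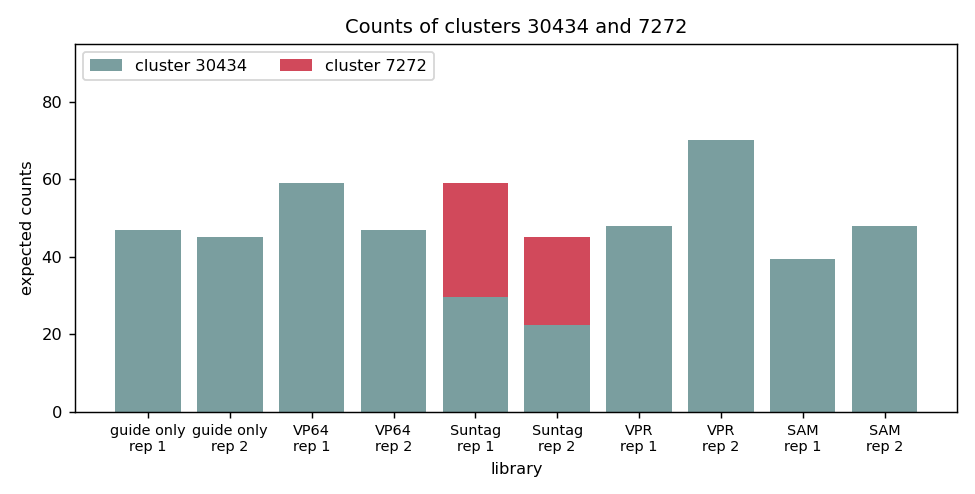
Expected counts of clusters 30434 and 7272, stacked, in each of the 10 libraries. In both Suntag libraries the bar is split evenly between the clusters, at 29.5 and 22.5 counts each, and in the other 8 libraries all counts are listed under 30434.

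Other clusters were also listed at 0 in 1 of the 2 groups. With a minimum of 5 counts in both libraries of the other group, 9 clusters were present in Suntag and listed at 0 in VP64, and 6 the reverse. Of the 9, 6 were tested, and of the 6, 5 were. Among the 6 present in VP64, 2 held equal fractional counts in every library, at 5.26 and 12.8 in VP64, and are not separate observations. Cluster 4232 was the only 1 of these 15 with whole counts in all 10 libraries. Apart from 4232 and 7272, none exceeded 29.8 counts in a Suntag or VP64 library, and none of those tested was called. Of the 9 clusters present in Suntag, 8 had counts in some library of another group, as did all 6 of those present in VP64.

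The 28 smaller differences divided evenly, with 14 clusters higher and 14 lower in Suntag. These clusters were well measured, with mean VP64 levels from 15.0 to 651 CPM and a median of 126 CPM. In all 28 both Suntag libraries lay on the same side of both VP64 libraries. Across all tested clusters both Suntag libraries lay above both VP64 libraries in 25.6% and below in 19.1%, so the separation alone is common. Of the 28, 3 had whole counts in all libraries, against 20.3% of tested clusters, and the levels of the others may include reads shared with other clusters.

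Among higher clusters, the largest of these differences belonged to the cluster ranked 3, a single transcript of 1553 nt with whole counts. Its level was 14.6 and 15.4 CPM in VP64 and 28.4 and 29.0 CPM in Suntag. The log2 difference was 0.92 ± 0.16 (SE, edgeR adjusted p = 0.0253), and the 2 groups were far apart beside the gap within each. In the guide-only control it stood in between, at 21.5 and 23.2 CPM. The cluster ranked 4, a single transcript of 1239 nt, gave a like picture, with 16.6 CPM in both VP64 libraries and 30.5 and 31.9 CPM in Suntag (log2 difference 0.88 ± 0.14, SE, edgeR adjusted p = 0.0161). The cluster ranked 5, with 2 transcripts and 1396 nt, was at 19.4 and 18.2 CPM in VP64 and at 30.6 and 35.1 CPM in Suntag, 1.70-fold higher by the fit. It was also called higher in Suntag than in the control (log2 difference 0.67, edgeR adjusted p = 0.0322; 1.33% of tested clusters were called in Suntag against the control), where it held 21.5 and 20.8 CPM, near VP64.

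The cluster ranked 11 among higher ones, with 4 transcripts and 1336 nt, had the highest level of the 28 in VP64. It stood at 643 and 659 CPM in VP64 and at 895 and 1176 CPM in Suntag, a log2 difference of 0.64 ± 0.10 (SE, edgeR adjusted p = 0.0161). Suntag replicate 2 lay well above replicate 1, and both lay above VP64. On the scale per length it held 1705 TPM in Suntag and 1058 TPM in VP64. A single transcript of 682 nt, ranked 14, was the shortest of the 28, with 134 and 123 CPM in VP64 and 176 and 197 CPM in Suntag.

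Of the remaining higher clusters, the one ranked 6, a single transcript of 2412 nt, was at 120 and 127 CPM in VP64 and at 188 and 229 CPM in Suntag, 1.65-fold higher by the fit. The one ranked 8, with 3 transcripts and 3821 nt, was at 28.9 and 30.4 CPM in VP64 and at 47.3 and 48.3 CPM in Suntag. The one ranked 9, with 2 transcripts and 5408 nt, was the longest of the 14, at 49.7 and 44.6 CPM in VP64 and at 72.5 and 80.3 CPM in Suntag. In each the lowest Suntag library stood well clear of the highest VP64 library. The clusters ranked 10, 13, 15 and 16 were 1.40-fold to 1.57-fold higher in Suntag, with edgeR adjusted p from 0.0184 to 0.0395.

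For 2 higher clusters VP64 was called against the control, and the Suntag levels lay near it. The cluster ranked 7, with 5 transcripts and 4732 nt, was at 141 and 142 CPM in VP64, at 210 and 252 CPM in Suntag and at 225 and 214 CPM in the control. It was called lower in VP64 than in the control (log2 difference -0.57, edgeR adjusted p = 0.0191; 0.816% of tested clusters were called in VP64 against the control), and its Suntag libraries spanned the control values. The cluster ranked 12, a single transcript of 4431 nt, held 228 and 238 CPM in VP64, 330 and 401 CPM in Suntag and 346 and 334 CPM in the control. It too was called lower in VP64 than in the control (log2 difference -0.48, edgeR adjusted p = 0.0317).

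Among lower clusters, number 8172, a single transcript of 3606 nt, had the largest difference apart from 30434. Its level was 136 and 127 CPM in VP64 and 87.5 and 64.7 CPM in Suntag. The log2 difference was -0.82 ± 0.13 (SE, edgeR adjusted p = 0.0161), and the Suntag libraries lay apart from each other but both below VP64. In the control it was at 89.1 and 81.8 CPM, near Suntag replicate 1 and above Suntag replicate 2. It was called higher in VP64 than in the control (log2 difference 0.69, edgeR adjusted p = 0.0284). Its call between the activators ended without VP64 replicate 1 (edgeR adjusted p = 0.302), without VP64 replicate 2 (0.17) and without Suntag replicate 2 (0.0789, log2 difference -0.60).

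Several lower clusters had long transcripts. A cluster of 14 transcripts and 8639 nt, ranked 3 and with whole counts, was at 45.8 CPM in both VP64 libraries and at 29.1 and 28.1 CPM in Suntag (log2 difference -0.70 ± 0.13, SE, edgeR adjusted p = 0.0286). A cluster of 3 transcripts and 9651 nt, ranked 5, was at 255 and 243 CPM in VP64 and at 173 and 141 CPM in Suntag. A single transcript of 10296 nt, ranked 6, was at 135 and 116 CPM in VP64 and at 83.0 and 80.8 CPM in Suntag. In these 3 clusters the groups did not overlap, and VP64 was 1.58-fold to 1.63-fold above Suntag. The longest of the 28, of 4 transcripts and 10889 nt, was ranked 11 and stood at 164 and 150 CPM in VP64 and at 107 and 111 CPM in Suntag.

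Lower clusters of medium or short length showed differences of like size. The third cluster with whole counts, ranked 8, with 3 transcripts and 4699 nt, was at 132 and 134 CPM in VP64, 90.5 and 86.4 CPM in Suntag and 97.4 and 102 CPM in the control. It was called higher in VP64 than in the control (log2 difference 0.47, edgeR adjusted p = 0.0284). A single transcript of 933 nt, ranked 7, was the shortest of the 14, at 89.8 and 88.3 CPM in VP64 and at 60.0 and 58.4 CPM in Suntag. Its control values of 59.5 and 65.9 CPM lay near Suntag, and it was called higher in VP64 than in the control (log2 difference 0.57, edgeR adjusted p = 0.0369). In the cluster ranked 9, a single transcript of 1752 nt, the control lay near VP64. It stood at 427 and 516 CPM in VP64, 296 and 349 CPM in Suntag and 471 and 430 CPM in the control. Suntag was called lower than the control here (log2 difference -0.45, edgeR adjusted p = 0.0464). Clusters that set Suntag apart from VP64 thus lay near the control in either of the 2 groups.

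Transcript lengths of the 28 differed by direction. The median was 1993 nt among higher and 5133 nt among lower clusters, against 2871 nt over all tested. Of the 14 higher clusters 7 were under 1600 nt and 0 over 8000 nt; of the 14 lower ones 1 was under 1600 nt and 5 were over 8000 nt. Clusters over 8000 nt made up 3.52% of those tested and clusters under 1600 nt 17.6%. Over all tested clusters the difference moved little with length. Its median was -0.10 for the 248 clusters under 700 nt, 0.03 for 700 to 1500 nt, 0.03 for 1500 to 3000 nt, -0.0072 for 3000 to 6000 nt and -0.07 for the 1354 over 6000 nt. With the length trend of each library removed, 30 of the 31 clusters were still called, among 41. With an offset for RSEM's effective length, which takes in the fragment length, 19 of the 31 were called, among 20, of which 8 were higher and 12 lower. The part of fragment length in these calls was not tested further.

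The guide-only control lay between the activators for most of these clusters. Its mean was between those of VP64 and Suntag for all 14 higher and 13 of the 14 lower clusters. The exception was the cluster ranked 14, of 2928 nt, with 94.0 and 92.7 CPM in the control and 95.1 and 86.6 CPM in VP64. The VPR mean lay between for 27 of the 28 and the SAM mean for 22. Because the 28 were selected for the distance between Suntag and VP64, other groups are bound to fall between them often, and these counts are a description. Against the control, 5 of the 14 higher clusters were called higher in Suntag (0.989% of all tested clusters were) and 2 called lower in VP64 (0.151% of all tested). Of the 14 lower clusters 3 were called lower in Suntag (0.34% of all tested) and 5 called higher in VP64 (0.665% of all tested). The same Suntag and VP64 libraries chose the 28, and both comparisons share the control libraries, so nothing is read from these counts.

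**Figure D4:**
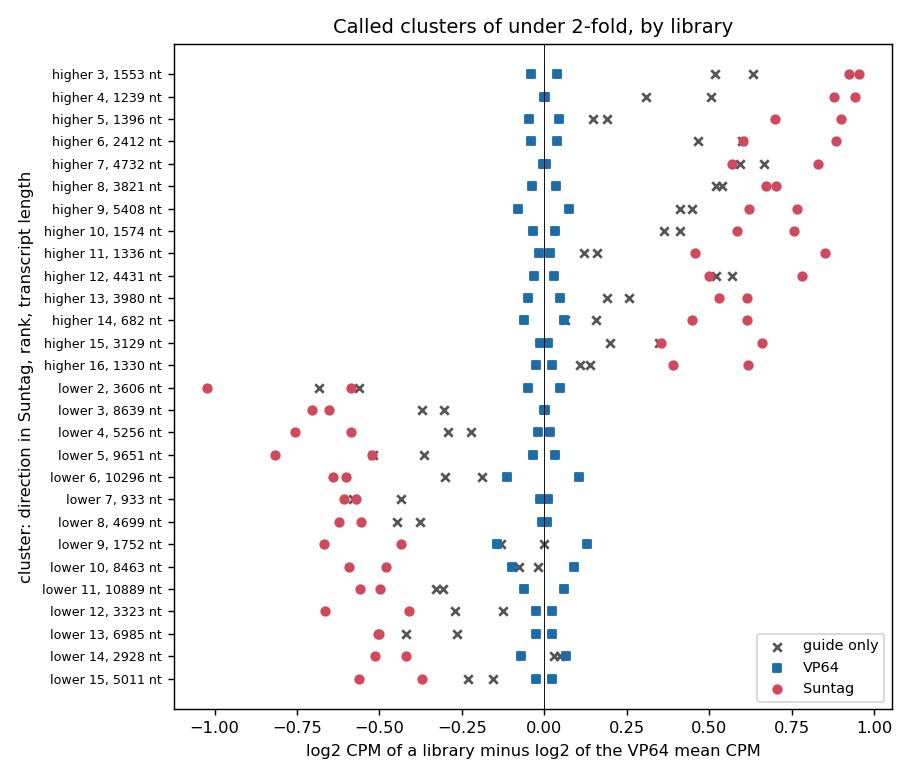
Level of the 28 called clusters of under 2-fold in the VP64, Suntag and guide-only libraries, as log2 CPM less the log2 of the VP64 mean, 1 row per cluster and 2 points per group. Both Suntag points lie on 1 side of both VP64 points in every row, and the guide-only points mostly lie in between.

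The number of calls rested on single libraries. Without VP64 replicate 1 no cluster was called by edgeR, with 1169 at an unadjusted p under 0.05, and without VP64 replicate 2 only cluster 4232. Without Suntag replicate 2 there were 2 calls, of which 1, cluster 4232, was among the 31, and without Suntag replicate 1 there were 528, 245 higher and 283 lower, with all 31 among them. The Suntag libraries thus differed in their distance from VP64. Over 9759 clusters of at least 10 CPM, the median absolute log2 ratio was 0.18 between Suntag replicate 2 and either VP64 library, and 0.15 between Suntag replicate 1 and either VP64 library. Between the 2 Suntag libraries it was 0.15, and between the VP64 libraries 0.11. Suntag replicate 2 lay farther from VP64 than replicate 1 did in 23 of the 28 smaller calls, with a median log2 difference of 0.72 against 0.57 among higher clusters and -0.66 against -0.56 among lower ones.

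**Figure D5:**
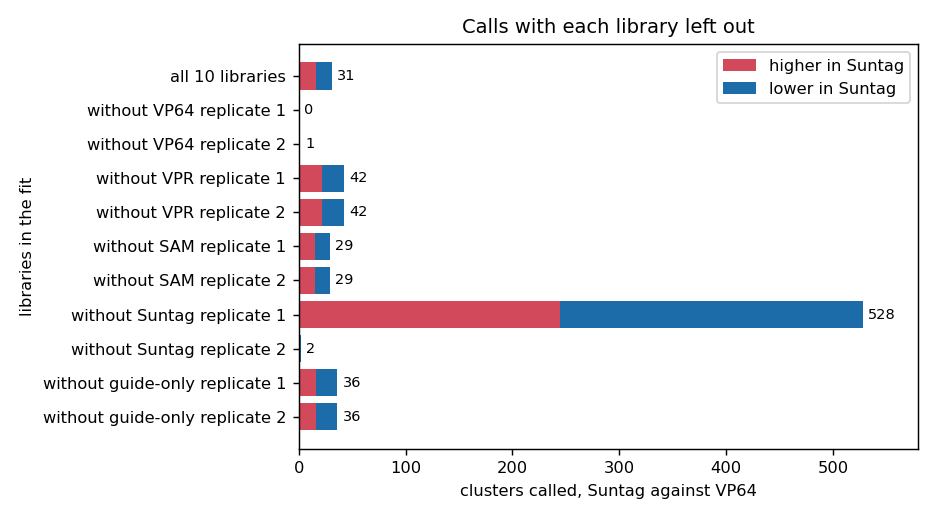
Number of clusters called between Suntag and VP64 by edgeR with all 10 libraries and with each library left out in turn, split into higher (red) and lower (blue) in Suntag. The count is 31 with all libraries, 0 without VP64 replicate 1 and 528 without Suntag replicate 1.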

How the data were processed

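The members, the length classes and the tests were chosen with earlier results of these data known. Per the submitters' processing notes, the authors used RSEM 1.2.1 and the hg19 build, with the annotation not given in the sources used here. The authors deposited, per the file headers, expected counts, TPM and transcript and effective lengths per cluster. Per the labels' protocols, libraries were made from poly(A) RNA with random hexamers and tagmentation, which does not mark the strand, so overlapping and antisense genes cannot be told apart. All 82960 transcript identifiers in the files begin with uc, the form of UCSC's transcript identifiers, and 1 was found among the RefSeq table's synonyms, so clusters are unnamed.

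Expected counts were rounded and tested with edgeR 4.0.16 in R 4.3.3: filterByExpr, TMM, then a quasi-likelihood test of the 10 libraries together. Adjustment was by Benjamini-Hochberg. The fit had 5 residual degrees of freedom, and a median of 15.3 with the prior ones that edgeR adds. The intervals used this total. With 2 libraries a group, the smallest p of an exact two-sided permutation test is 0.333. The SE is the log2 difference divided by the square root of F. Counts were whole within 0.01. Replicates were taken as separate libraries, since their counts differed by more than counting error. The chi-square per degree of freedom was 1.70 in VP64, 2.68 in VPR, 2.27 in SAM, 2.61 in the control and 6.12 in Suntag. The fit shares the spread over all groups, so its p-values may rest on a smaller spread than that between the Suntag libraries. Numbers were given to the 2 higher and 2 lower called clusters with the largest difference, at least 1 CPM and no overlap of the groups; other clusters described were chosen after their values were seen. The test was checked on simulated data. Alternatives were RLE factors, DESeq2 1.42.0, no filter, the 4 libraries alone, the replicate block, each library left out, 2 length corrections, whole counts only, a threshold of 0.01 and sums with listed neighbours.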

Additional observations from a re-analysis of the deposited data

Results flagged for a closer look

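Suntag and VP64 were compared directly by edgeR's quasi-likelihood test, which tests against no difference. Among the calls, 3 clusters had a fitted difference of at least 2-fold, a size that was not itself tested. The log2 difference was 9.34 for cluster 4232 and 7.56 for cluster 7272, both fitted values against 0 counts in VP64, and -1.45 for cluster 30434. Clusters 7272 and 30434 held equal counts in each Suntag library, and their sum gave a log2 difference of -0.45 (edgeR adjusted p = 0.363).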

How the results depend on the processing

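The 31 calls became 32 with RLE factors, 30 with the replicate block and 41 with the length trend removed. They became 125 with DESeq2 (60 higher, 65 lower), which gave an adjusted p for 3231 clusters. With no filter on low counts, 529 of 19963 tested clusters were called. The calls were 49 with the 4 libraries alone, 20 with the effective length offset and 4 among clusters with whole counts. At a threshold of 0.01 there was 1, cluster 4232. DESeq2 called 20 of the 31 and gave no adjusted p for the other 11, cluster 4232 among them. Leaving out 1 library in turn gave 0 to 528 calls. The 3 calls of at least 2-fold became 0 with DESeq2, 84 with no filter, 14 with the 4 libraries alone and 1 with the pair summed, and 0 to 37 without 1 library. Apart from the missing adjusted p in DESeq2, the causes were not tested. The 4 calls with whole counts are a part of the 31, taken without a new fit, and the sum merges 2 calls. The number of intervals within 2-fold moved by less than 1.5 times in each edgeR alternative.

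The replicate block left 27 of the 31 called. Same-numbered Suntag and VP64 libraries showed no shared deviation (correlation -0.04 across 9757 clusters, which are not replicates), so the numbers were not taken as pairs. The fitted difference of cluster 4232 was 6.82 summed with its listed neighbours, which add 1 count in VP64. Cluster 7272 missed the threshold with the effective length offset (edgeR adjusted p = 0.056) and summed with its listed neighbours (0.107), and its difference turned to -0.45 summed with 30434. Cluster 30434 missed it in that sum. Cluster 8172 kept its call and direction in 15 of 18 alternatives and 4232 in 16 of 17, the exceptions being libraries left out.

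The median log2 difference of clusters under 700 nt less that of clusters over 3000 nt was -0.09, less than the pooled SD of 0.13 between libraries of a group. As deviations from the mean over the 4 libraries, VP64 stood at 0.057 and 0.059 and Suntag at 0.087 and -0.17. The pooled SD thus came mostly from the gap between the Suntag libraries. The difference by length ran from -0.22 without Suntag replicate 1 to 0.046 without Suntag replicate 2, and was 0.02 with classes under 1000 and over 5000 nt.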
